A study of Mus musculus with 8 samples.

Results

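Globin transcripts were followed in single cells sorted at embryonic day 9.5 from the yolk sac, an extraembryonic tissue, of wild-type mice of the C57BL/6N strain. The members were taken by name: the embryonic beta chains Hbb-y and Hbb-bh1, the embryonic alpha-like chain Hba-x, the adult alpha chains Hba-a1 and Hba-a2, and the adult beta chains Hbb-bt and Hbb-bs. Of these 7 genes, 6 have a row among the 23091 genes listed in the tables. The tables analysed here hold no row named Hba-a2, so adult alpha means Hba-a1 throughout. Cells lay in 8 libraries of equal size, 1536 wells in all. The 4 libraries labelled A1 and A2 hold early myeloid cells, with A1 and A2 cells in the same libraries, and the 4 labelled EMP hold erythro-myeloid progenitors. All 8 share strain, genotype, age and tissue, received no treatment, and came from a sort on CD45 after staining for CD45 and CD11b. The EMP libraries were prepared beside the others and, per the labels, left out of the published work. Where 4 values are given for a set, they follow the order of its libraries 1 to 4. Nothing in the labels ties a library to an animal, so p-values measure the spread between libraries, which may be technical.

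A haemoglobin molecule pairs alpha-like with beta-like chains around heme, and the genes of each kind stand in a cluster on a chromosome of its own. In the mouse yolk sac the earliest wave of red cells, the primitive erythrocytes, makes Hbb-y, Hbb-bh1 and Hba-x together with adult alpha chains. Erythro-myeloid progenitors give rise to a later, definitive wave, whose red cells make mainly adult alpha and adult beta chains. Hbb-bt and Hbb-bs are the paired adult beta genes of strains such as C57BL/6.

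The stretch before the start site of 5 of the genes is shown here because it holds the elements that globin promoters are known for. Each sequence covers the 130 bases upstream of the start, 5′ to 3′ along the gene, as RefSeq gives it for GRCm38.p6. Capitals mark the CACCC box, the CCAAT box, the GATAA motif and the TATAA motif, searched on both strands. In Hbb-bt a reverse-strand and a forward CCAAT lie side by side, and no other matches touch.
Hbb-y, chr7:103853208-103853337, minus strand: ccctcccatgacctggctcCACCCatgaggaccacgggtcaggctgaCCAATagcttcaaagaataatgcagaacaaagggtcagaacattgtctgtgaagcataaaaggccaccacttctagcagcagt
Hbb-bt, chr7:103813924-103814053, minus strand: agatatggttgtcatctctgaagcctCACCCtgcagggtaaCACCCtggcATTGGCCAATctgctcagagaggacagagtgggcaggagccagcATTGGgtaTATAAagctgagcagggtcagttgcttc
Hbb-bs, chr7:103827929-103828058, minus strand: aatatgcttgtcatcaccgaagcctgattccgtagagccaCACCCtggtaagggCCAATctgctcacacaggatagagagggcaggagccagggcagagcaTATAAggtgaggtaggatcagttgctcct
Hba-x, chr11:32276470-32276599, plus strand: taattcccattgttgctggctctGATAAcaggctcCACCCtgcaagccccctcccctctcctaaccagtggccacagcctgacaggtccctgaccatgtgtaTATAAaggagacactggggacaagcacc
Hba-a1, chr11:32283542-32283671, plus strand: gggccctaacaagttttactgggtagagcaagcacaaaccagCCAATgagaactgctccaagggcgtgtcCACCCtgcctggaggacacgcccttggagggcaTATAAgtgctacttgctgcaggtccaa

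Each of the 5 stretches holds CACCC, which 33.7% of the 32851 promoter windows of the same length hold on either strand. CCAAT is in 4 of the 5, all but Hba-x (22.4% of all windows), TATAA in 4, all but Hbb-y (12.7%), and GATAA in Hba-x alone of the 5 (11.4%). Hbb-bt differs from Hbb-bs in having 2 CACCC and 3 CCAAT matches in place of 1 and 1, and their windows were 75.8% identical. Such matches describe the letters and show no binding. Along the transcripts the adult copies are hard to part: in the GENCODE M21 models the coding sequences of Hbb-bt and Hbb-bs were 99.8% identical, with 1 differing base in 444, and those of Hba-a1 and Hba-a2 were 99.8% identical, with 1 in 429. Of the 30-base windows in the last 200 bases of the Hbb-bs model, where 3′ tags lie, 12 of 171 also occur in Hbb-bt. For Hba-a2 it was 125 of 171 windows that also occur in Hba-a1. Hbb-y and Hbb-bh1 were 76.9% identical and shared 0 such windows. How reads shared by near-identical genes were counted is not given in the sources used here. The split between Hbb-bt and Hbb-bs is uncertain, and Hba-a1 could hold reads of Hba-a2.

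Of the 1536 wells, 1223 held at least 1000 transcripts and were kept, 568 in the A1/A2 set and 655 in the EMP set. Kept wells summed to between 2558197 and 5418136 transcripts per library, and the median kept well held 3763 to 9412 transcripts in the A1/A2 set and 16856 to 21921 in the EMP set. Against the labels, markers of yolk sac endoderm were widespread: 1149 of the 1223 kept wells held at least 6 of 16 endoderm genes. In the comparison of library sums, 17.3% of all 11144 genes tested were called higher on the A1/A2 side and 15.4% lower. It was higher for 15 of 15 tested macrophage genes and lower for 13 of 14 endothelial and 9 of 16 endoderm genes. Of 11 progenitor genes, 7 were lower and 1 higher. The part of these mixtures in the globin values was not tested.

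The 8 libraries use one set of well barcodes, and globin transcripts followed the barcode across libraries. In 15 wells, on 14 barcodes, a well held at least 1000 globin transcripts, and these wells carried 80.4% of all globin transcripts. The 97 wells that bear one of these 14 barcodes in another library, 89 of them kept, stood apart from the wells around them. In A1/A2 library 1 the median of such wells was 28.3 globin transcripts per 10000 against 1.08 in the remaining wells, and in A1/A2 library 4 it was 48.4 against 3.23. In A1/A2 libraries 2 and 3 the medians were 62.8 against 12.6 and 86.9 against 28.2. In the EMP set they were 53.7, 25.7, 37.8 and 37.9, against 6.58, 2.72, 3.83 and 9.48. Well 100, with 15625 globin transcripts in A1/A2 library 3, held 89 to 233 (median 100) in the other 7 libraries, and well 157, with 12540 in A1/A2 library 2 and 9542 in EMP library 1, held 62 to 153 in the other 6. The median over wells with other barcodes was 5.00 transcripts. Not every barcode stood out: wells 6 (1543 in EMP library 4) and 36 (1342 in EMP library 1) had medians of 6 and 7 in the other libraries. Leaving out the 97 wells took 52.0% of the globin transcripts from A1/A2 library 4 (2684 to 1289) and lowered those of A1/A2 library 1 from 1931 to 1617, and it took 1.64% to 3.16% from each EMP library. The main results are given with these wells, and those that moved most without them are given beside these. The movement was largest in A1/A2 library 4, where the levels without them were 128 (Hbb-y), 102 (Hbb-bh1), 78.0 (Hba-x) and 113 CPM (Hba-a1) and the globin share was 0.0430% in place of 0.0779%.

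**Figure D1:**
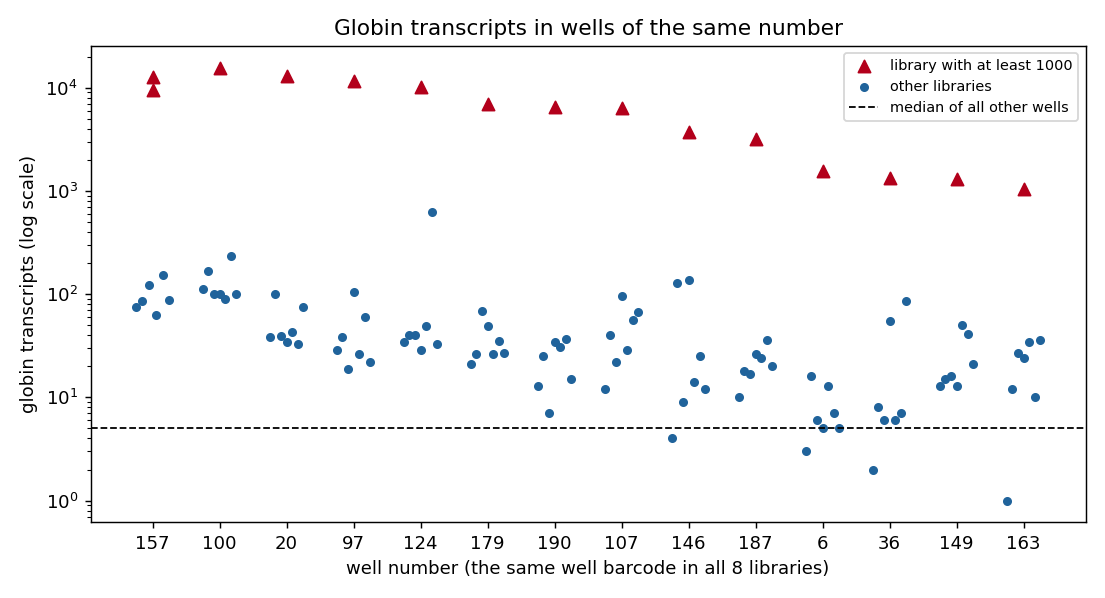
Globin transcripts (log scale) in the wells of each of the 14 barcodes on which a library holds at least 1000 of them, by well number. Red triangles are those libraries, blue points the wells of the same number in the other libraries, and the dashed line is the median of the wells with other barcodes, 5.00. Every blue point lies above the line except in wells 6, 36, 146 and 163, where the lowest stands at 3, 2, 4 and 1 transcripts.

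The embryonic chains and adult alpha made up nearly all globin transcripts, in similar amounts. Over all kept wells there were 128725 globin transcripts, of which 26.8% were Hba-x, 25.9% Hbb-bh1, 25.6% Hbb-y and 21.1% Hba-a1, while adult beta gave 0.384% (Hbb-bt) and 0.215% (Hbb-bs). Levels are CPM (counts per 1000000) of all kept transcripts of a library. Since 1 tag is counted per transcript, they need no scaling for length. Each value is a level, and fold changes are named as such.

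Hbb-y, an embryonic beta chain, was at 225, 1436, 1895 and 235 CPM in the A1/A2 set and at 1718, 534, 1000 and 1189 CPM in the EMP set. A1/A2 libraries 1 and 4 were lowest and A1/A2 library 3 highest of the 8, so the EMP set lay inside the A1/A2 range. Hbb-bh1, the other embryonic beta chain, was at 188, 1432, 1749 and 226 CPM and at 1767, 634, 1057 and 1152 CPM. Hba-x, the zeta-type alpha chain, was at 203, 1419, 2194 and 140 CPM and at 1889, 602, 998 and 1164 CPM. These chains followed the same order of libraries within the A1/A2 group, apart from the 2 lowest libraries, which changed places for Hba-x. Hba-a1, the adult alpha chain, was at 137, 1148, 1549 and 167 CPM and at 1416, 524, 708 and 1101 CPM. The highest A1/A2 library exceeded the lowest 8.41-fold for Hbb-y, 9.31-fold for Hbb-bh1, 15.7-fold for Hba-x and 11.3-fold for Hba-a1. Without the wells of shared barcodes the spans were 15.8-fold, 17.9-fold, 29.7-fold and 14.5-fold. In the EMP set the span was 2.70-fold to 3.22-fold. Without the 6 wells in which globin made up at least 10% of transcripts, it was 7.40-fold to 8.49-fold. The A1/A2 spans stayed at 8.41-fold to 15.7-fold without those wells.

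None of these 4 genes passed the test between the groups. By edgeR's quasi-likelihood test with Benjamini-Hochberg adjustment over 11144 genes, the log2 fold change of A1/A2 over EMP libraries was -0.25 ± 0.81 (SE) for Hbb-y, -0.38 ± 0.82 for Hbb-bh1, -0.25 ± 0.94 for Hba-x and -0.34 ± 0.87 for Hba-a1, with adjusted p from 0.755 to 0.858. Their directions are not stable: without the 6 wells in which globin made up at least 10% of transcripts, each was above 0 (0.13 to 0.38), and Hbb-y, for example, was at 0.08 without A1/A2 library 1.

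Adult beta was rare everywhere and lower in the A1/A2 set for Hbb-bt. Hbb-bt was at 1.56, 8.44, 11.3 and 8.42 CPM in the A1/A2 set (4, 30, 31 and 29 transcripts) and at 25.8, 9.79, 18.7 and 31.1 CPM in the EMP set (126, 53, 100 and 121 transcripts). The groups overlap, since A1/A2 library 3 lies above EMP library 2. The means were 7.42 ± 4.13 and 21.3 ± 9.22 CPM (SD, n = 4), with a log2 fold change of -1.50 ± 0.44 (edgeR, adjusted p = 0.0262). Of the 6 globins this was the only call (1 of 6, lower), against 32.8% of all 11144 genes called and 15.4% called lower. The median log2 fold change was -0.36 over the 6 globins and -0.02 over all genes tested. The Hbb-bt call was lost without EMP library 1 or 4 or without A1/A2 library 2 or 4 (edgeR, adjusted p = 0.0566, 0.0579, 0.0564 and 0.0577). It was also lost without the 6 wells of at least 10% globin, where the fold change was -0.84 (edgeR, adjusted p = 0.111). With the library number added to the model, the fold change was -1.45 and did not pass (edgeR, adjusted p = 0.109).

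Hbb-bs was at 0.391, 3.09, 8.01 and 2.90 CPM in the A1/A2 set (1, 11, 22 and 10 transcripts) and at 24.9, 6.47, 8.43 and 7.99 CPM in the EMP set (122, 35, 45 and 31 transcripts). EMP library 1 stood above the other 7, and A1/A2 library 3 lay within the range of the remaining EMP libraries. Its log2 fold change was -1.76 ± 0.64 (edgeR, adjusted p = 0.0593), just outside the threshold of 5%. It was called without A1/A2 library 3 (-2.42; edgeR, adjusted p = 0.0271) and by DESeq2 (adjusted p = 0.0157).

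**Figure D2:**
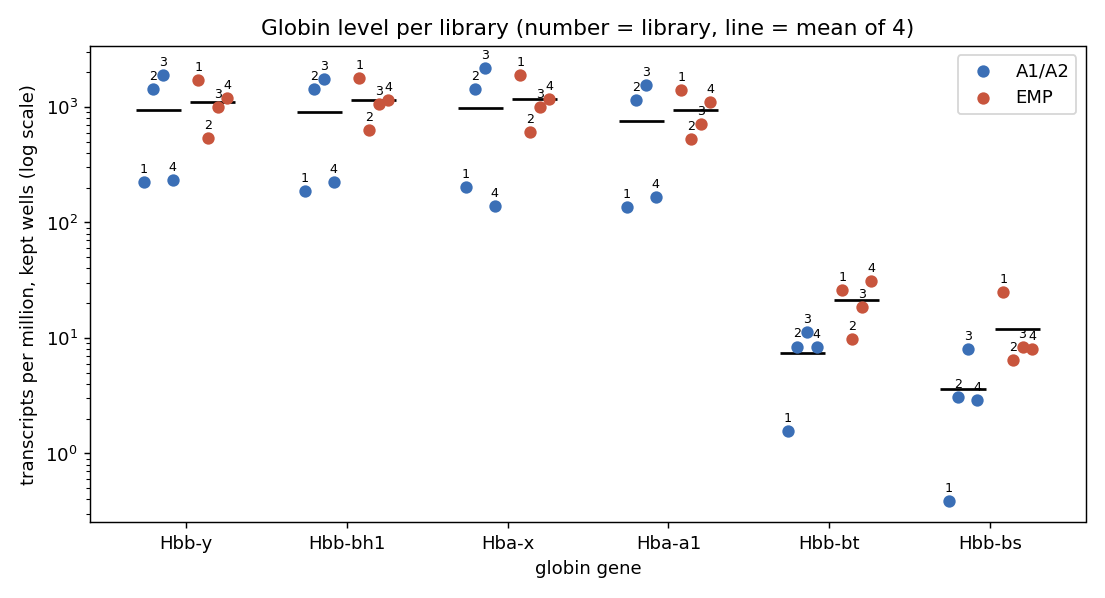
Level of each globin per library in CPM of kept wells (log scale), A1/A2 libraries in blue and EMP libraries in red, numbered by library, with the mean of 4 libraries as a line. The embryonic chains and Hba-a1 sit together near 1000 CPM, apart from A1/A2 libraries 1 and 4, and Hbb-bt and Hbb-bs lie below 32 CPM in all 8 libraries.

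Embryonic chains outnumbered adult beta chains in every library. Per adult beta transcript there were 211, 249, 189 and 40.7 embryonic beta transcripts in the A1/A2 set and 68.8, 71.8, 75.8 and 59.9 in the EMP set. The 4 EMP libraries lay close together, while A1/A2 library 4 fell below them and the other A1/A2 libraries above. This order rests on a few wells. Without the 6 wells of at least 10% globin the EMP ratios were 82.6, 71.8, 19.0 and 55.7. EMP library 3 then lay below A1/A2 library 4, which stayed at 40.7. Without the wells of shared barcodes A1/A2 library 4 was at 24.6, on 28 adult beta transcripts. As a share of beta transcripts, Hbb-y and Hbb-bh1 made up 99.5% in A1/A2 library 1 (95% Wilson interval 98.9% to 99.8%, resting on 5 adult beta transcripts) and 98.6% in EMP library 1 (98.4% to 98.7%, with 248). In the other libraries the share was 97.6% to 99.6%. These intervals cover counting error only, not the spread between cells. On the log2 scale the ratio was 7.15 ± 1.21 in the A1/A2 and 6.10 ± 0.14 in the EMP set (SD, n = 4), which did not pass (exact permutation p = 0.143, two-sided; adjusted p = 0.429 over 6 comparisons).

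None of the other chain ratios passed, nor did the globin share. Hbb-bh1 to Hbb-y was 0.834, 0.997, 0.923 and 0.960 in the A1/A2 set and 1.03, 1.19, 1.06 and 0.969 in the EMP set, overlapping between A1/A2 library 2 and EMP library 4 (exact permutation p = 0.0571, two-sided; adjusted p = 0.343). Hba-x to Hba-a1 was 1.48, 1.24, 1.42 and 0.841 against 1.33, 1.15, 1.41 and 1.06 (exact permutation p = 0.971; adjusted p = 0.971). Here A1/A2 library 4 was the 1 library with more Hba-a1 than Hba-x. Alpha to beta chains stood at 0.818, 0.891, 1.02 and 0.650 against 0.935, 0.951, 0.818 and 0.952 (exact permutation p = 0.514; adjusted p = 0.771), so the Hba-x and Hba-a1 tags together nearly matched the beta tags. Hbb-bs to Hbb-bt was 0.250, 0.366, 0.710 and 0.345 against 0.963, 0.661, 0.450 and 0.257 (exact permutation p = 0.429; adjusted p = 0.771), which puts Hbb-bt above Hbb-bs in all 8 libraries. The globin share of all transcripts was 0.0755%, 0.545%, 0.741% and 0.0779% in the A1/A2 set and 0.684%, 0.231%, 0.379% and 0.465% in the EMP set (exact permutation p = 0.686; adjusted p = 0.823). With 4 libraries against 4 the smallest possible p is 0.0286.

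A library's globin came from a few wells. The well with most globin gave 67.3%, 64.7%, 76.6% and 23.2% of the globin of the A1/A2 set and 34.3%, 50.2%, 49.8% and 71.7% of that of the EMP set, and 1 to 3 wells sufficed for 50% of it. Globin made up at least 10% of transcripts in 1 kept well of the A1/A2 set, in library 2, and in 5 of the EMP set, 2 in library 1, 2 in library 3 and 1 in library 4. The lowest of these 6 wells had 10.1% and the highest well below the limit 9.54%. A library with no such well, for example the 127 kept wells of A1/A2 library 3, could still hold up to 2.36% of them, the share that 3 wells would make. The shares of 0.175% ± 0.350 and 0.775% ± 0.574 of kept wells (SD, n = 4) did not differ by the test (exact permutation p = 0.257, two-sided).

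**Figure D3:**
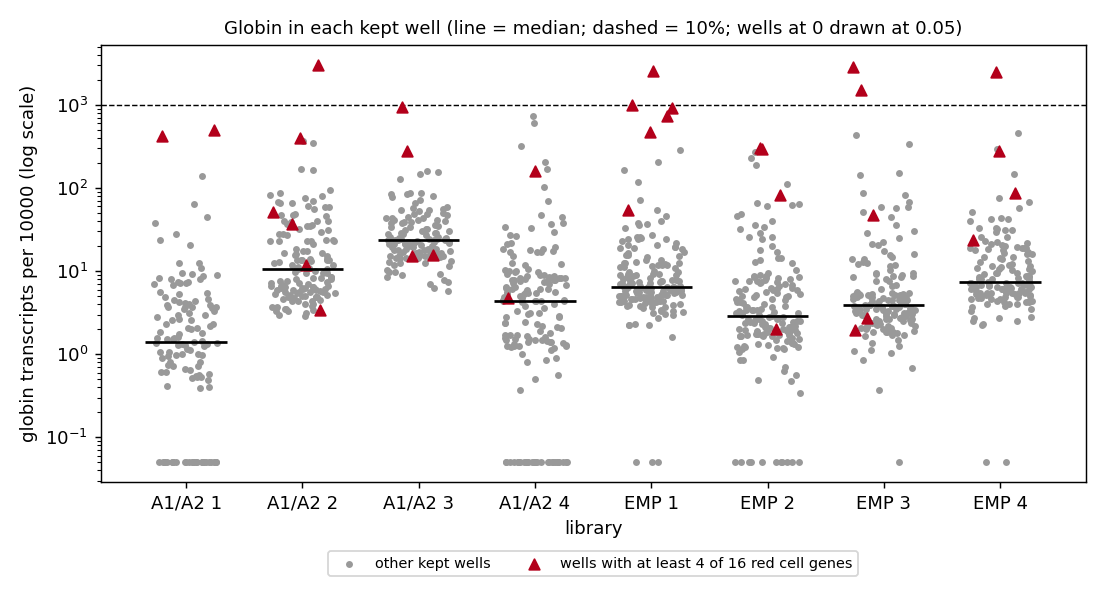
Globin transcripts per 10000 (log scale) in each kept well of the 8 libraries, with the median as a line and 10% as a dashed line. Red triangles are the 33 wells with at least 4 of 16 red cell genes. Between 1 and 3 wells in each library hold most of its globin, and the median well lies between 1.41 and 23.4 per 10000.

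Wells that hold globin in bulk also held other genes of the red cell. At least 4 of 16 red cell genes, a list of mostly membrane and membrane skeleton genes with no globin in it, were found in 33 kept wells, 2, 6, 4 and 2 in the A1/A2 set and 6, 4, 5 and 4 in the EMP set. These wells held 82.6% of the globin transcripts of kept wells, but in A1/A2 library 4 only 9.45%. Just inside the limit lay 12 wells with 4 genes, and just outside it 56 wells with 3. Of the 33 wells, 5 bear a barcode on which another library holds at least 1000 globin transcripts, and all 33 also held at least 6 endoderm genes. In the red cell gene wells, per library, Slc4a1, the anion exchanger band 3, had a median of 178 CPM (0 to 510) against 0.618 CPM in the other kept wells. Its 0 was in A1/A2 library 4. Klf1, the activator of erythroid genes, had a median of 30.6 CPM (17.03 to 78.9, the lowest on 1 transcript) against 0.298 CPM. Epor, the erythropoietin receptor, had 32.6 CPM (2.44 to 89.8, the lowest on 1 transcript) against 1.38 CPM. Slc4a1 belongs to the list that chose the wells and Klf1 and Epor do not, and all 3 are given as a description of the class, with no test. Bcl11a, known as a repressor of embryonic globin genes, was at a median of 14.5 CPM in these wells against 29.2 CPM in the others, and higher in 1 of the 8 libraries. Its level in these wells rests on 51 transcripts, 0 to 21 per library. Sox6 and Zbtb7a, also regulators of globin genes, differed less, at 6.89 against 5.36 CPM and 46.0 against 48.0 CPM. Each of them was higher in 3 libraries.

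The chain make-up of single globin wells was close to uniform. Among the 15 wells with at least 1000 globin transcripts, 14 held at least 4 red cell genes. In those 14, Hbb-y made up 21.4% to 36.8% of globin transcripts, Hbb-bh1 20.6% to 28.3%, Hba-x 21.5% to 29.9% and Hba-a1 15.8% to 23.9%. Adult beta was at most 0.639% (Hbb-bt) and 0.676% (Hbb-bs). The well with most globin for its size, well 157 of A1/A2 library 2, held 3341 Hbb-y, 3386 Hbb-bh1, 3205 Hba-x, 2595 Hba-a1, 6 Hbb-bt and 8 Hbb-bs transcripts, 30.6% of its 41039 transcripts. Well 20 of EMP library 4 held 3318, 3225, 3214, 3091, 83 and 23 in the same order, or 24.7% of 52380. In well 100 of A1/A2 library 3, Hba-x reached 4447 transcripts, the most of any globin in a well. That value stands for 2713 of the 4096 identifiers a well can show for a gene, so the deposited correction for repeated identifiers raised it 1.64-fold, and 5 wells had a globin with more than 50% of the identifiers in use.

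The fifteenth well went against this make-up. Well 163 of EMP library 1 held 657 Hbb-bh1 transcripts against 177 Hbb-y, 105 Hba-x and 99 Hba-a1, an Hbb-bh1 to Hbb-y ratio of 3.72 where the other 14 wells lay between 0.559 and 1.28. It held 3 red cell genes and 8 of 12 progenitor genes. Among smaller wells, singled out after their values were seen, well 19 of EMP library 2 also had more Hbb-bh1 (121) than Hbb-y (46). Well 124 of A1/A2 library 4 held 255 Hbb-y and 276 Hbb-bh1 but 49 Hba-x and 36 Hba-a1, an alpha to beta ratio of 0.159, and its barcode is one on which another library, EMP 3, holds 10103 globin transcripts. Well 181 of A1/A2 library 4 went the other way for the adult chain, with 187 Hba-a1 against 114 Hba-x. Wells 124 and 181 held 23.2% and 20.6% of the globin of that library, the one whose ratios stood apart above.

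**Figure D4:**
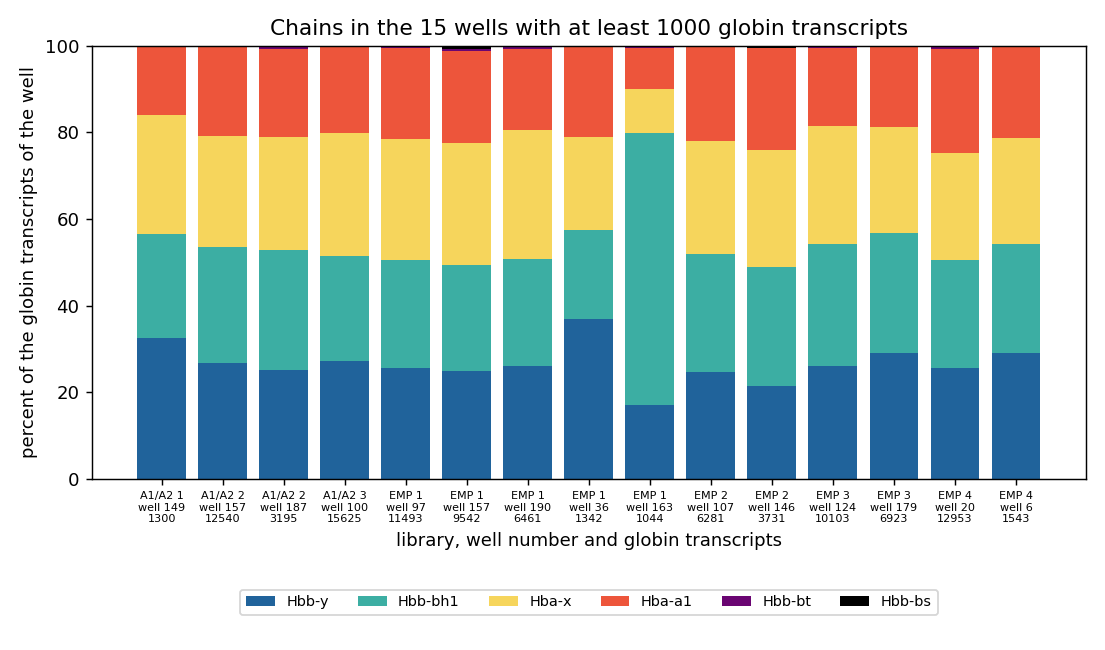
Share of each chain among the globin transcripts of the 15 wells with at least 1000 of them, with library, well number and globin count below each bar. The 4 abundant chains fill similar parts of 14 bars, while Hbb-bh1 fills 62.9% of the bar of EMP library 1, well 163, and adult beta is a thin edge at the top.

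Outside the red cell gene wells the adult part of beta was larger in the EMP set. Hbb-y and Hbb-bh1 made up 98.7%, 99.4%, 99.3% and 98.6% of beta transcripts in the red cell gene wells of the EMP set and 97.8%, 95.4%, 94.9% and 97.1% in their other kept wells. In the A1/A2 set the values were 99.7%, 99.6%, 99.6% and 96.0% against 98.9%, 99.6%, 99.1% and 97.7%. Over the 8 libraries the difference was 1.30 ± 2.03 percentage points (SD), with the red cell gene wells higher in 7 (exact sign-flip permutation p = 0.117, two-sided; adjusted p = 0.352 over 3 contrasts). It passed with limits of 3 or 6 genes (2.01 and 1.72 points; exact permutation p = 0.00781, the smallest possible, and 0.0156) and without A1/A2 library 4 (1.74; 0.0156), and turned without the wells of shared barcodes (-1.12; exact permutation p = 1.0). The difference itself differed between the groups, at 2.70 points in the EMP and -0.10 in the A1/A2 set (exact permutation p = 0.0286, the smallest possible; adjusted p = 0.0429). Without the wells of shared barcodes these were 2.95 and -5.19 points, and the difference no longer passed (exact permutation p = 0.0571; adjusted p = 0.171). A1/A2 library 4 then had a share of 73.7% in its red cell gene wells against 96.7% in the others. Its 2 red cell gene wells held 125 beta transcripts, 5 of them adult. Well 100, with 51 Hbb-y, 54 Hbb-bh1 and 0 adult beta transcripts, was among these 2 and bears a shared barcode. The 73.7% thus came from the other well alone, on few transcripts. Red cell gene wells still had the higher share in 7 of the 8 libraries.

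Those adult beta transcripts were mostly Hbb-bt in wells with progenitor genes. Wells were called progenitor gene wells where they held at least 5 of 12 genes such as Kit, the stem cell factor receptor, and fewer than 4 red cell genes. The class was made after the values were seen, so it is described and not tested. In the EMP set, Hbb-bt was at 13.2, 21.7, 18.7 and 14.1 CPM in 52, 56, 78 and 59 such wells, and at 3.36, 2.05, 1.21 and 2.54 CPM in the other wells with fewer than 4 red cell genes. Hbb-y did not run along with it: its level was 192.04, 68.4, 128 and 154 CPM against 147, 128, 156 and 209 CPM, lower in 3 of the 4 libraries. Hbb-bs was at 2.39, 1.44, 2.07 and 1.88 CPM in the progenitor gene wells. In all, 171 of the 400 Hbb-bt transcripts of the EMP set lay in progenitor gene wells and 210 in red cell gene wells, while for Hbb-bs it was 20 and 194 of 233. Adult beta thus made up 2.60%, 13.6%, 6.72% and 4.82% of beta transcripts in the progenitor gene wells. In EMP library 1, well 163 alone held 177 of the 481 Hbb-y and 657 of the 982 Hbb-bh1 transcripts of the class. The 2.60% and the Hbb-y level of that library therefore lean on 1 well. In the A1/A2 set Hbb-bt was at 1.54, 1.498, 5.85 and 3.37 CPM in 27, 26, 21 and 29 progenitor gene wells, against 0.816, 2.21, 4.43 and 13.0 CPM in the others. These A1/A2 wells also held medians of 10, 10.5, 11 and 11 of 15 macrophage genes, against 3.5, 2, 2 and 3 in the EMP class. Their median totals were 37729, 47879, 68014 and 59351 transcripts. The class is therefore not alike in both sets. The progenitor gene wells were deeper, with medians of 35445, 23221, 28956 and 29768 transcripts in the EMP set against 8468, 17923, 6571 and 7124 in the others, and the part of depth was not tested. With limits of 4, 6 or 7 genes the EMP means were 16.02, 18.8 and 17.3 CPM in place of 16.9 ± 3.98 (SD, n = 4), and those of the other wells 2.37, 2.57 and 4.10 CPM in place of 2.29 ± 0.903. At 7 genes the other wells of EMP library 2 were at 7.83 CPM in place of 2.05 CPM, and well 125, with 6 progenitor genes, was then one of them. Without the wells of shared barcodes the means were 16.98 and 2.32 CPM.

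The Hbb-bt share of beta transcripts varied widely between single progenitor gene wells. Well 125 of EMP library 2 held 20 Hbb-bt transcripts beside 5 Hbb-y, 11 Hbb-bh1 and 0 Hbb-bs, so that 55.6% of its 36 beta transcripts were Hbb-bt (95% Wilson interval 39.6% to 70.5%). Well 190 of EMP library 3 held 10 beside 3 Hbb-y and 6 Hbb-bh1, so that 10 of its 20 beta transcripts were Hbb-bt (29.9% to 70.1%). Well 76 of the same library, with 11 of the 12 progenitor genes, held 11 Hbb-bt beside 5 Hbb-y and 11 Hbb-bh1. Well 51 of EMP library 2 had the highest share, 6 of 7 beta transcripts (48.7% to 97.4%), on few transcripts. These wells were chosen for at least 5 Hbb-bt transcripts, and 10 progenitor gene wells reached that number, each of them in an EMP library. Among the 10 the share was lowest in well 163 of EMP library 1, at 0.596% of 840 beta transcripts, and next in well 131 of the same library, at 17.2% of 58. Well 129 of EMP library 3 held 7 of 20 and well 28 held 6 of 14, and wells 24 and 83 of EMP library 4 held 7 of 14 and 6 of 12.

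**Figure D5:**
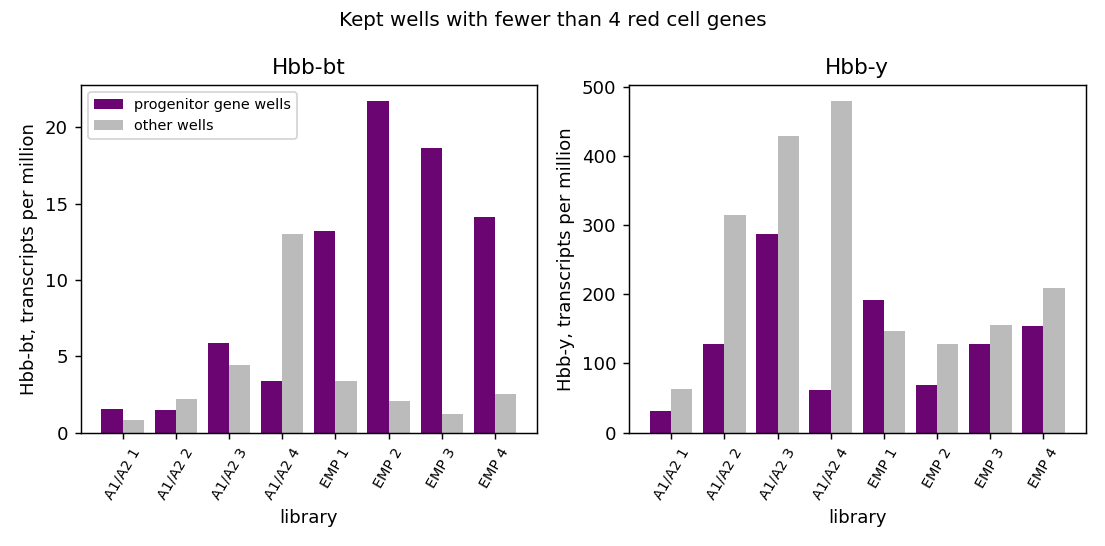
Level of Hbb-bt (left) and Hbb-y (right) in CPM, in progenitor gene wells (purple) and the other kept wells with fewer than 4 red cell genes (grey), for each of the 8 libraries. In the 4 EMP libraries the purple Hbb-bt bars stand at 13.2 to 21.7 CPM against 1.21 to 3.36 CPM, while the purple Hbb-y bars are lower in 3 of them.

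Low numbers of globin transcripts were found in most other wells. Of the 1223 kept wells, 1148 held at least 1 globin transcript, with a median of 9 over all kept wells. Macrophage gene wells were those with at least 5 of 15 macrophage genes and fewer than 4 red cell genes, a type not expected to make globin. In each library at least 92.5% of them held a globin transcript, at median totals of 33959 to 73030 transcripts. Holding a globin transcript thus does not set wells with red cell genes apart here. Where these transcripts came from was not tested. Thinned to 1000 transcripts per well, Hbb-y was found in 27.96% ± 17.3 of A1/A2 and 23.0% ± 5.73 of EMP wells (SD, n = 4; unthinned 67.2% and 79.7%), and in macrophage gene wells of the A1/A2 set in 3.77%, 24.6%, 38.8% and 7.35%. Hbb-bt was found in 0.712% ± 0.0815 of A1/A2 and 1.67% ± 0.218 of EMP wells (unthinned 6.26% and 15.5%). The thinned shares do not overlap, but they stand for 1 well in each A1/A2 library and 2 or 3 in each EMP library. With the wells of shared barcodes left out and the rest thinned anew, the shares were 0.732% ± 0.546 and 1.29% ± 0.463 and overlapped (exact permutation p = 0.229; adjusted p = 0.857). None of the 6 genes passed (exact permutation p = 0.0286 for Hbb-bt, the smallest possible, adjusted p = 0.171; adjusted p = 0.714 for the other 5).

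The level of this diffuse globin differed from library to library. The median kept well held 1.41, 10.7, 23.4 and 4.36 globin transcripts per 10000 in the A1/A2 set and 6.50, 2.85, 3.94 and 7.35 in the EMP set. Within each library, wells with more transcripts had a lower globin share, with a Spearman rho of -0.19 to -0.58 over 127 to 177 kept wells that share a library (a description, since the total is also the denominator). The 313 wells under 1000 transcripts had globin shares of 0.247%, 0.561%, 0.823% and 0.0877% in the A1/A2 set, each above the kept wells of its library, and 0.368%, 0.205%, 0.323% and 0.434% in the EMP set, each below. Over the 8 libraries the difference was -0.0185 ± 0.141 percentage points (exact sign-flip permutation p = 0.750; adjusted p = 0.750). Without the wells of shared barcodes it was -0.106 ± 0.139 points (exact sign-flip permutation p = 0.0625; adjusted p = 0.188), and the shallow wells were higher in 2 libraries, A1/A2 1 and 4. Shares of embryonic beta in the shallow wells were at least 97.2%, 0.452 ± 1.51 points from the kept wells (exact sign-flip permutation p = 0.414; adjusted p = 0.621).

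Genes that serve haemoglobin were described over the same test. Of 16 tested genes of heme synthesis and iron supply, 1 was higher and 4 lower in the A1/A2 set, with a median log2 fold change of -0.26, a share called near that of all genes (32.8%). Among those lower were Slc25a39, a mitochondrial carrier needed for heme synthesis (198 ± 27.6 against 293 ± 31.0 CPM; -0.59 ± 0.12), Snx3, a sorting protein of the transferrin receptor (-0.62 ± 0.17), and Fech, which inserts the iron (-0.58 ± 0.18; edgeR, adjusted p from 0.00316 to 0.0258). None of the 10 tested red cell genes passed, and their median was -0.19; Tspan33 had the smallest p (8.003 ± 1.81 against 10.6 ± 1.84 CPM; edgeR, adjusted p = 0.155). By unadjusted p, 0 of these 10 lay under 0.05. Of 20 tested regulators of globin genes, 7 were higher and 5 lower, with a median of 0.08, beside 17.3% and 15.4% of all genes. The 4 with the smallest p, all among the higher, are named. Klf2, an activator of embryonic beta globin, was 2.12 ± 0.23 higher on the log2 scale (40.7 ± 13.0 against 9.12 ± 1.34 CPM). Lmo2, a bridge in erythroid transcription complexes, was 0.97 ± 0.23 higher, Lin28b, a fetal-stage RNA-binding protein, 0.76 ± 0.19, and Mbd2, a reader of methylated DNA, 0.40 ± 0.11 (edgeR, adjusted p from 6.46e-05 to 0.0131). Of 15 tested genes that protect or turn over red cell contents, 2 were higher and 4 lower, with a median of -0.12, beside the same 17.3% and 15.4%. Gpx1, an antioxidant enzyme, was higher (0.83 ± 0.11), and Bnip3l, which clears mitochondria (-0.58 ± 0.09), Cat, catalase (-0.56 ± 0.15), and Car2, carbonic anhydrase (-1.40 ± 0.36), were lower (edgeR, adjusted p from 0.000268 to 0.0204). These sums mix all kept wells, in which macrophage, endothelial and progenitor genes differ as given above.

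Genes whose share ran most like that of globin over wells were not erythroid genes. Among 9095 genes present in at least 10% of the kept wells of each group, the highest mean within-library Spearman rho with the globin sum was 0.29 for mt-Nd5 (0.13 to 0.50 over 8 libraries), followed by mt-Cytb (0.28), mt-Nd4 (0.27), mt-Co2 (0.22), mt-Nd2 (0.22), mt-Rnr2 (0.22), mt-Nd4l (0.21) and Apoe (0.21). The first 7 are genes of the mitochondrial genome, and Apoe encodes an apolipoprotein of the yolk sac endoderm and of macrophages. These weak values describe wells that share library and depth. Among the 33 red cell gene wells alone, the globin share ran along with the share of the 16 red cell genes (rho 0.92 over wells of 8 libraries, which share libraries). These wells were chosen by the same 16 genes. Over all kept wells of a library, rho between both shares was only -0.15 to 0.02. Of the other genes of the globin clusters, Hbb-bh2 had 1 transcript and Hbq1a 3 over all wells, and none was tested.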

How the data were processed

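Yolk sac cells were measured by mCEL-Seq2, which marks the 3′ end of a transcript with the barcode of its well and an identifier. The tools named in the submitters' processing notes are Seurat and BWA 0.6.2-r126, with no roles. The build and annotation were not given in the sources used here. Deposited per-library values are estimated counts for each gene in each well. Undoing the correction for repeated identifiers gave whole numbers out of 4096 for 100.0% of values in each library (tolerance 1e-06). A deposited table of the same expected counts (165, 175, 160 and 189 A1/A2 wells) held identical globin values. A note deposited with it says damaged cells were left out there.

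Wells with at least 1000 transcripts were kept and summed per library. Rounded sums were tested with edgeR 4.0.16 (quasi-likelihood, TMM, filterByExpr) and, as an alternative, DESeq2 1.42.0, in R 4.3.3. Shares and log2 ratios were compared by exact permutation over libraries. The edgeR step was tested on simulated data. Members and gene lists were chosen with earlier results of these data known. Named genes were the globins, up to 4 per list by smallest p (some are not reported here), and the 8 most like the globin sum. Wells were singled out after their values were seen.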

Additional observations from a re-analysis of the deposited data

Results flagged for a closer look

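Each of the 44 screens for a stray library compares 4 values, and chance alone sets off about 1 in 20 of them. Hbb-bs was at 24.9 CPM in EMP library 1 against 6.47 to 8.43 CPM in the other EMP libraries, and 65 of the 122 Hbb-bs transcripts of that library lay in well 157. A1/A2 library 4 had a log2 ratio of embryonic to adult beta of 5.35 against 7.56 to 7.96 in the other A1/A2 libraries. EMP library 3 had a log2 ratio of alpha to beta of -0.29 against -0.10 to -0.07. At equal depth Hba-x was found in 17.5% of wells of EMP library 2 against 25.9% to 27.1% in the other EMP libraries, and Hbb-bs in 1.20% of wells of A1/A2 library 4 against 0 in the other A1/A2 libraries. The 1 globin-rich well of the A1/A2 libraries, in library 2, gave a share of 0.699% there against 0 elsewhere in that group. In EMP library 1 the globin share of shallow wells minus that of kept wells was -0.316 percentage points against -0.0560 to -0.0257 in the other EMP libraries. In EMP library 4 the embryonic share of beta in shallow wells minus that in kept wells was -0.113 points against 1.30 to 1.43 in the others.

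Contrasts within libraries differed between the groups in 2 of 3 cases. The globin share of shallow over kept wells was 0.0701 points in the A1/A2 and -0.107 points in the EMP libraries, a difference of 0.177 (exact permutation p = 0.0286, adjusted p = 0.0429). The embryonic share of beta in red cell gene wells over other wells was -0.0962 and 2.70 points, a difference of -2.80 (exact permutation p = 0.0286, adjusted p = 0.0429). The smallest possible p is 0.0286 here. Neither difference passed without the wells of shared barcodes (exact permutation p = 0.114 and 0.0571, adjusted p = 0.171 for both).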

How the results depend on the processing

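Differences are A1/A2 minus EMP. Of the 6 globins, 1 was called (edgeR). The number was 0 without the wells of at least 10% globin, 0 after thinning each well to 1000 transcripts (4 globins tested), 2 by DESeq2, and 0 to 2 when each library was left out in turn. Without the wells of at least 10% globin the log2 fold changes turned to 0.38 (Hbb-y), 0.13 (Hbb-bh1), 0.32 (Hba-x) and 0.22 (Hba-a1), and the globin share to 0.0490 points. With single libraries left out they ran from -0.84 to 0.083 (Hbb-y), -1.01 to 0.12 (Hba-x) and -0.98 to 0.011 (Hba-a1), and the globin share from -0.207 to 0.0147. Thinning turned the log2 ratio of Hba-x to Hba-a1 to 0.0459 (-0.111 to 0.161 with libraries left out) and that of alpha to beta to 0.16. Without thinning, the differences in wells with a globin turned to -12.5 (Hbb-y), -15.2 (Hbb-bh1), -14.2 (Hba-x) and -13.7 points (Hba-a1). With libraries left out they ran from -0.148 to 11.3, -2.14 to 9.30, -3.94 to 13.2 and -0.0410 to 13.5. For Hbb-bs that difference was 0.439 thinned to 2000 and 0.0710 without the wells of shared barcodes, an alternative chosen after seeing the data. The globin share of shallow over kept wells was 0.0471 points in uncorrected identifiers and -0.0457 to 0.0239 with libraries left out. The embryonic share of beta in red cell gene wells over others was 2.01 and 1.72 points with limits of 3 and 6 genes, -1.12 without the wells of shared barcodes, and 0.852 to 1.74 with libraries left out. The causes were not tested. No Hba-a1 to Hba-a2 ratio could be computed.

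With the library number as a replicate block, edgeR called 4735 genes in place of 3651 and 0 globins (Hbb-bt -1.45; edgeR, adjusted p = 0.109). The sample titles give the same number, as P1 to P4, to an A1/A2 and an EMP library, and do not say what it stands for. The deviations of same-numbered libraries had correlations of 0.22, 0.39, -0.03 and 0.22. These were not all over 0.1, so the main test did not take the numbers as pairs. A1/A2 library 3 and EMP library 3 did not correlate best with their own number, while the libraries numbered 1, 2 and 4 did. Whether the numbers mark pairs is not settled.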
